A study of Bos taurus with 48 samples.

Results

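The comparison concerned the mammary fat pad of cattle that received milk replacer ad libitum or in a restricted amount. It comprised 12 of the 48 samples of the series, chosen by their labels alone: 6 mammary fat pad samples with the treatment ad libitum and 6 with the treatment restricted. Small RNA was sequenced from all of them, and 524 bovine miRNAs were listed in the deposited values. The tissues had been placed in an RNA preservative right after slaughter. Mammary parenchyma and liver were sampled under the same feeding labels, with 6 ad libitum and 6 restricted samples each, and 4 control samples of the fat pad. The labels give neither breed, age, sex nor the length of feeding, and do not say whether the samples came from separate animals. What the p-values measure is thus only the spread among these samples, and that may in part be technical.

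miRNAs are short RNAs cut from a hairpin precursor, whose arms are named 5p and 3p. They bind messenger RNAs mainly through the seed, bases 2 to 8 of the mature strand, and lower the output of those messenger RNAs. Members of a family share a seed, and many miRNAs lie in clusters that are transcribed together or inside introns of protein-coding host genes. The mammary fat pad is the adipose and connective tissue into which the epithelial ducts grow. In adipose tissue, miR-378 is known as an intronic product of the gene of PGC-1 beta, miR-130 and miR-27 as repressors of PPARG, and miR-26 and miR-30 as miRNAs that favour adipocyte differentiation.

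Among the miRNAs that differed or belong to the families described here, 4 had a mature sequence at hand, as the reference sequence of a qPCR assay designed on human or pig miRNAs. They are shown because miR-100-5p carries the seed of miR-99a-5p, miR-30c-5p carries the seed of miR-30b-5p, miR-381-3p was itself lower in the ad libitum samples, and miR-433-3p is a member of the imprinted DLK1-DIO3 cluster. Capitals mark the seed, and the sequences are written as DNA.
miR-100-5p: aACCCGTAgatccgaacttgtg
miR-30c-5p: tGTAAACAtcctacactctcagc
miR-381-3p: tATACAAGgacaagctctctgt
miR-433-3p: aTCATGATgggctcctcggtgt

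The values were read counts that the authors had divided by 1 size factor per library, and are called normalized values here. The estimated number of reads assigned to miRNAs ranged from 2123962 to 8588233 in the ad libitum and from 4213224 to 9522666 in the restricted samples (exact permutation test, two-sided, p = 0.273). The smallest value above 0 stood for 6 reads, so that a miRNA listed at 0 may have had up to 5. In each library the 10 most abundant miRNAs held 55.2% to 61.8% of the summed values. They were miR-99a-5p, miR-126-3p of endothelial cells, miR-26a, miR-143 of smooth muscle, miR-148a, both copies of miR-199a-3p, let-7i, miR-10b and let-7a. Markers of epithelial cells were scarce in the fat pad. Of 10 epithelial miRNAs in the table, miR-141, miR-375, miR-429 and miR-96 were listed at 0 in all 12 samples, and the sum of the list ranged from 19.4 to 436 in ad libitum and from 17.4 to 215 in restricted samples. The epithelial miR-200c, at most 195 in the fat pad, was at least 9102 in every parenchyma sample of the 2 feeding groups. Ad libitum replicate 3 stood apart: it had the fewest reads, the highest epithelial sum and 3798 of the hepatocyte miR-122, which was at most 667 in the other samples. On the first principal component, which took 35.3% of the variance, this library lay at 12.6 and restricted replicate 10 at the other end, at -19.2. Without both, 28 miRNAs were higher and 23 lower, of which 41 were among those reported here.

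The feeding groups differed in a broad set of miRNAs. At an adjusted p of 0.05 (limma on log2(value + 1), Benjamini-Hochberg), 50 of the 305 miRNAs whose mean value reached 10 passed, a share of 16.4%. In the ad libitum samples 25 were higher and 25 lower, 8.2% in each direction, and 97 had an unadjusted p under 0.05. Most differences were modest. The median size of the log2 fold change among the 50 was 0.72, and 8 of the higher and 6 of the lower miRNAs differed by a fitted fold of at least 2. The 50, the 25 higher and these 8 include miR-11987, which was listed at 0 in all 6 restricted samples. It entered the test through the ad libitum samples and is not read as a difference. The groups did not overlap for 9 miRNAs with higher ad libitum values and 17 with lower ones, which is 2.95% and 5.57% of all tested, together 8.52%. Of the 219 miRNAs that were not tested, 111 were listed at 0 in all 12 samples.

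The even split between the directions depended on the scaling. It was close to even with the authors' size factors and with a median of ratios over the 12 samples (25 higher, 21 lower), but not at equal sums. The sum of the normalized values was lower in the ad libitum than in the restricted samples (4355210 ± 237112 against 4824870 ± 369366, SD, n = 6 each; exact permutation test, two-sided, p = 0.0281). When each library was rescaled to the same sum, with the same 305 miRNAs tested, 39 were higher and 13 lower, and the median over all miRNAs of the log2 fold change moved from -0.02 to 0.13. Of the 50 miRNAs, 37 still passed, and the 13 that did not were all among the lower ones. These 13 were miR-23a, miR-23b-3p, miR-28, miR-99a-5p, miR-99a-3p, miR-133a, miR-335, miR-339b, miR-345-5p, miR-381, miR-455-5p, miR-652 and miR-769. None of the 50 changed sign under this or any other setting in which it was tested.

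**Figure D1:**
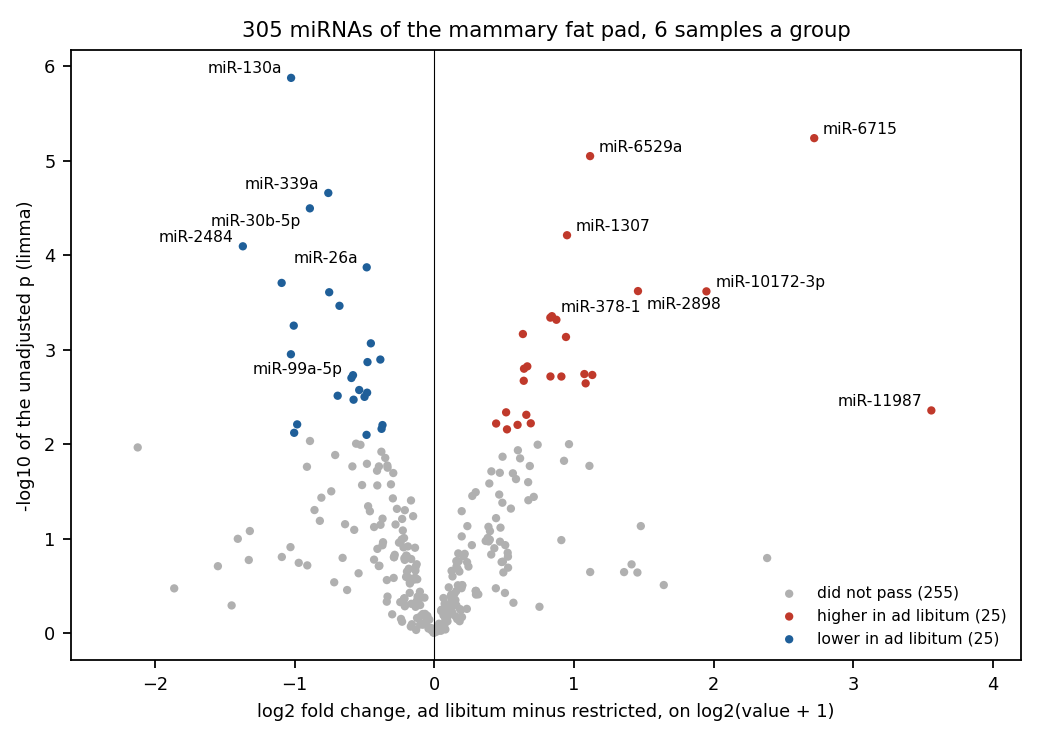
Log2 fold change (x axis, ad libitum minus restricted, on log2(value + 1)) against -log10 of the unadjusted p (y axis, limma) for the 305 miRNAs tested in the fat pad. The 25 higher miRNAs (red) and the 25 lower ones (blue) fall on both sides in equal number. The higher ones include miR-11987, which was listed at 0 in all restricted samples and is not read as a difference. miR-130a has the lowest p and miR-6715, at 2.72, the largest fold change among those detected in both groups.

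Among the higher miRNAs detected in both groups, miR-6715 showed the largest difference. Its values ran from 29.2 to 144 (median 106) in the ad libitum and from 8.33 to 21.8 (median 12.8) in the restricted samples. All 6 ad libitum samples thus lay above all restricted ones. The log2 fold change was 2.72 (standard error 0.38, adjusted p = 0.000883), a fitted fold of 6.59. The 4 control samples ranged from 0 to 28.9. In the RefSeq annotation of assembly ARS-UCD2.0, its gene lies within TECTB, which encodes a protein of the tectorial membrane of the inner ear.

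miR-10172-3p was next in size. It ranged from 119.5 to 397 (median 305) with ad libitum and from 37.9 to 149.9 (median 49.3) with restricted feeding, where replicates 5 and 13 were the high samples. The groups overlapped through replicate 5 alone, and the log2 fold change was 1.95 (standard error 0.40, adjusted p = 0.00628). Its hairpin lies in BEGAIN, a gene at the edge of the imprinted DLK1-DIO3 region. The other arm, miR-10172-5p, had a log2 fold change of 0.57 that did not pass (adjusted p = 0.627) at values of at most 30.4.

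miR-2898 was 1056 to 2553 (median 1683) in the ad libitum and 352 to 922 (median 750.4) in the restricted samples, with no overlap. Its difference amounted to 1.46 on the log2 scale (standard error 0.30, adjusted p = 0.00628). The controls lay at 338 to 676. miR-6529a, hosted by GSK3B, the gene of a kinase in insulin and Wnt signalling, ranged from 303 to 429.8 (median 394) against 136 to 264 (median 171). Its groups were also separate (log2 fold change 1.12, standard error 0.16, adjusted p = 0.000911). miR-1307, which is hosted by the ATP synthase subunit gene ATP5MK, ranged from 1422 to 2537 (median 1938) against 718 to 1222 (median 1018). No ad libitum sample fell to the level of the restricted ones (log2 fold change 0.95, standard error 0.17, adjusted p = 0.00313), and the controls, at 858 to 1212, lay within the range of the restricted ones.

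**Figure D2:**
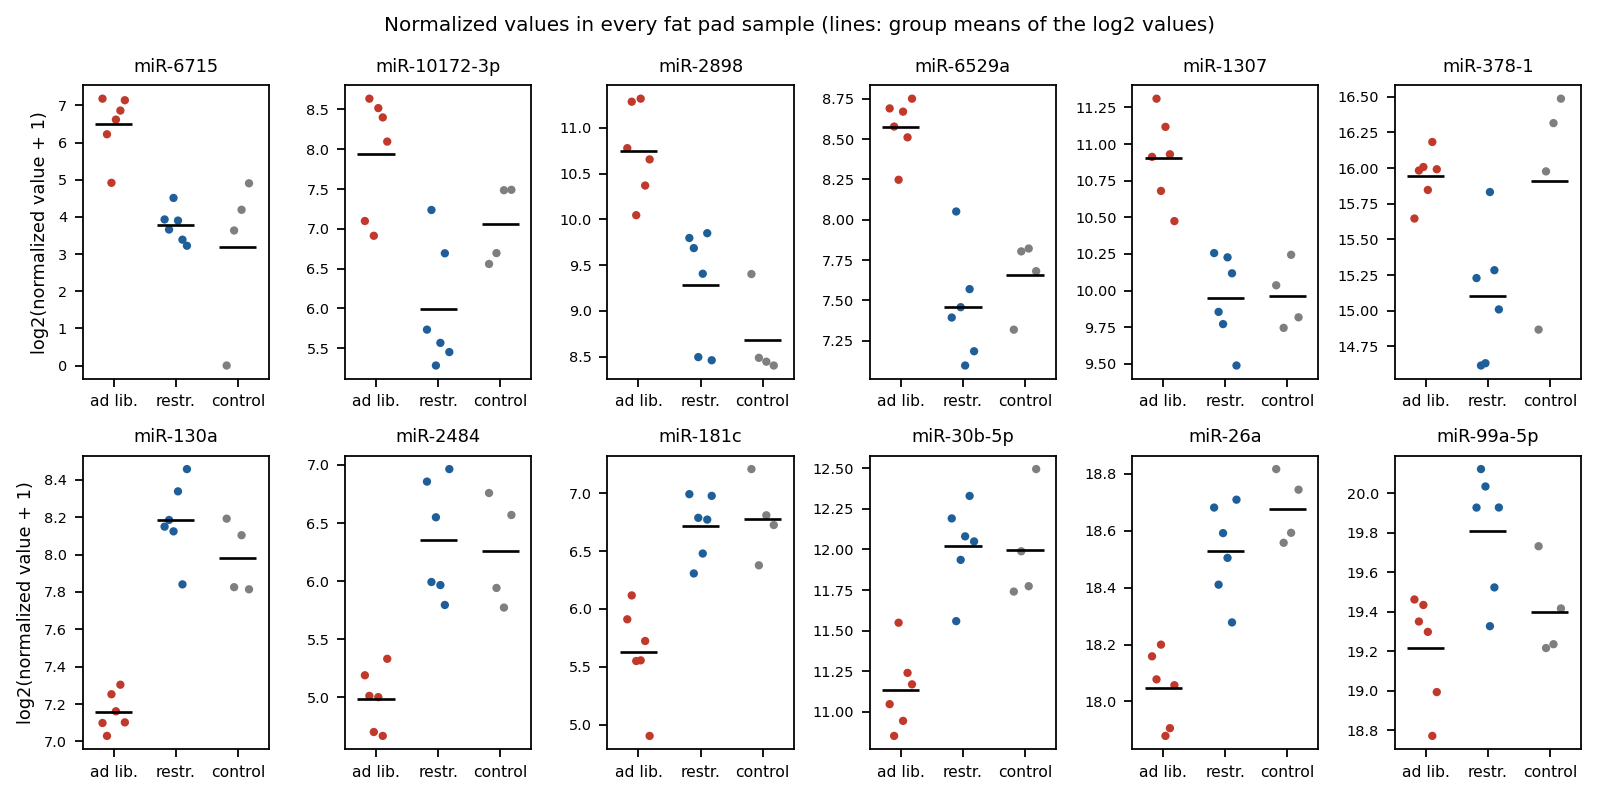
Log2(normalized value + 1) in each of the 6 ad libitum (red), 6 restricted (blue) and 4 control (grey) fat pad samples for 12 miRNAs; black lines are group means of the log2 values. The upper row shows miRNAs that were higher and the lower row miRNAs that were lower in ad libitum samples; the groups are fully separate for miR-6715, miR-2898, miR-6529a and miR-1307 above and for 5 of the 6 below, miR-99a-5p being the exception.

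In the miR-378 family 3 of 5 tested members were higher, beside 8.2% of all miRNAs, but 2 of the 3 are copies that share reads. miR-378-1 ranged from 51279 to 74388 (median 64959) in the ad libitum and from 25097 to 58324 (median 35677) in the restricted samples. Only the highest restricted sample, replicate 10, reached the ad libitum range; it is one of the libraries that stand apart. The log2 fold change was 0.84 (standard error 0.18, adjusted p = 0.00921). RefSeq places this gene within PPARGC1B, which encodes PGC-1 beta, a coactivator of oxidative metabolism. miR-378-2 is the copy that is not independent of it (0.83, adjusted p = 0.00921). RefSeq places the gene of miR-378-2 within CALCR, so the shared reads cannot be assigned to the PPARGC1B copy alone. miR-378b, at 57.2 to 111 against 20.9 to 66.1, differed by 1.08 on the log2 scale (standard error 0.28, adjusted p = 0.0196). For miR-378c and miR-378d the log2 fold changes were 0.62 and 0.53, and neither passed (adjusted p = 0.0696 and 0.310). The controls did not side with either group: miR-378-1 ran from 29879.5 to 91832 in them.

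Several miRNAs with lower values differed to a similar degree. miR-296-3p, known from the imprinted GNAS locus, ranged from 263 to 436 against 134 to 245 with no overlap (log2 fold change 0.87, standard error 0.19, adjusted p = 0.00921). miR-744, hosted by the kinase gene MAP2K4, ranged from 45.9 to 103 against 29.0 to 41.0, again with separate groups (log2 fold change 0.94, adjusted p = 0.0118). miR-365-5p belongs to the hairpin next to miR-193b, a pair known from brown fat. It was 86.8 to 167 against 41.7 to 77.8, also without overlap (log2 fold change 0.83, adjusted p = 0.0196), whereas its more abundant arm miR-365-3p and miR-193b did not pass (log2 fold changes 0.10 and 0.12). miR-504, known as a regulator of p53, and miR-340 overlapped between the groups, with log2 fold changes of 0.91 (adjusted p = 0.0196) and 0.69 (adjusted p = 0.0417). Without ad libitum replicate 9 the adjusted p rose to 0.0515 for miR-365-5p and 0.0504 for miR-504. The call of miR-340 was held in 3 of the 12 fits that left out 1 sample, with an adjusted p of up to 0.0879.

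Below a mean of 50 in both groups, miR-2387 and miR-11987 also passed on the higher side. miR-2387 ranged from 29.2 to 61.1 against 9.33 to 30.4, with a slight overlap (log2 fold change 1.13, standard error 0.29, adjusted p = 0.0196), and its adjusted p was 0.0507 when ad libitum replicate 9 was left out. miR-11987 was listed at 0 in all 6 restricted and all 4 control samples and above 0 in 5 of 6 ad libitum samples, with a highest value of 114 in ad libitum replicate 7. A listed 0 can hide 5 reads, so no fold is given. It reached the mean of 10 through the ad libitum samples, and without replicate 7 it fell below that mean and was not tested. Its adjusted p of 0.0344 is therefore not read as evidence of a difference. The remaining higher miRNAs outside the families below were miR-149-5p, miR-423-3p and miR-345-3p, which were chosen for naming only because they passed. Their log2 fold changes were 0.64, 0.51 and 0.44, and they passed in 12, 5 and 3 of the 12 fits.

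Among the lower miRNAs, miR-130a had the lowest p of all 305. The ad libitum samples lay close together, at 129.7 to 157 (median 139), and all restricted samples lay above them, at 228 to 351 (median 286). The log2 fold change was -1.02 (standard error 0.13, adjusted p = 0.000407). Controls, at 224 to 291, lay within or just below the restricted range. miR-130a is known to repress PPARG, the master factor of adipocyte differentiation.

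The largest decrease among those that passed was that of miR-2484, at 24.4 to 39.3 (median 31.2) against 54.5 to 124 (median 77.7). Its groups did not overlap (log2 fold change -1.37, standard error 0.25, adjusted p = 0.00352). miR-181c was 28.9 to 68.4 (median 48.9) with ad libitum and 78.2 to 126 (median 109) with restricted feeding, again in separate ranges. Its log2 fold change was -1.09 (standard error 0.22, adjusted p = 0.00628). miR-326, from an intron of ARRB1, the gene of an arrestin, ranged from 27.6 to 61.2 against 73.1 to 150.4 (log2 fold change -1.03, standard error 0.25, adjusted p = 0.0163).

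Several abundant miRNAs were lower as well. miR-99a-5p, the miRNA with the highest mean value in the fat pad and known to target mTOR, ranged from 447241 to 722173 (median 656449) in the ad libitum and from 657534 to 1141740 (median 997446) in the restricted samples. The lowest restricted sample, replicate 10, fell below ad libitum replicates 3, 6 and 7, and the log2 fold change was -0.59 (standard error 0.16, adjusted p = 0.0196). It did not pass without restricted replicate 8 (adjusted p = 0.0508) or after rescaling to equal sums (log2 fold change -0.45, adjusted p = 0.0570). The opposite arm miR-99a-3p was lower by a similar amount (log2 fold change -0.54, adjusted p = 0.0240, 7 of the 12 fits). The relative miR-100, whose seed is shown above, was 36383 to 45708 against 38736 to 54628, and its log2 fold change of -0.21 did not pass (adjusted p = 0.157). let-7c, the neighbour of miR-99a within 10 kb, had a log2 fold change of -0.18 (adjusted p = 0.420).

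miR-26a and miR-26b share a seed. The genes matched to them by symbol, MIR26A-2 and MIR26B, lie within CTDSP2 and CTDSP1, which encode small phosphatases. The name miR-26a carries no copy number, so its reads cannot be assigned to MIR26A-2 alone. miR-26a ranged from 240987 to 301033 (median 274643) against 317778 to 428612 (median 383497). miR-26b ranged from 26704 to 38580.3 (median 31674) against 40784 to 68325 (median 52750.2). For neither miRNA did the groups overlap. The log2 fold changes were -0.48 (standard error 0.09, adjusted p = 0.00513) and -0.68 (standard error 0.14, adjusted p = 0.00807), and both also passed after rescaling.

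In the miR-30 family the difference was carried by one arm. miR-30b-5p ranged from 1848 to 2995 (median 2209) in the ad libitum and from 3016 to 5145 (median 4283) in the restricted samples, without overlap. Its log2 fold change was -0.89 (standard error 0.15, adjusted p = 0.00195). The other members tested did not pass and had log2 fold changes between -0.22 and 0.47. Among them were miR-30d, which neighbours miR-30b within 10 kb (0.20, adjusted p = 0.247), and miR-30c, which carries the seed printed above (0.16, 95% interval -0.08 to 0.40, adjusted p = 0.332).

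**Figure D3:**
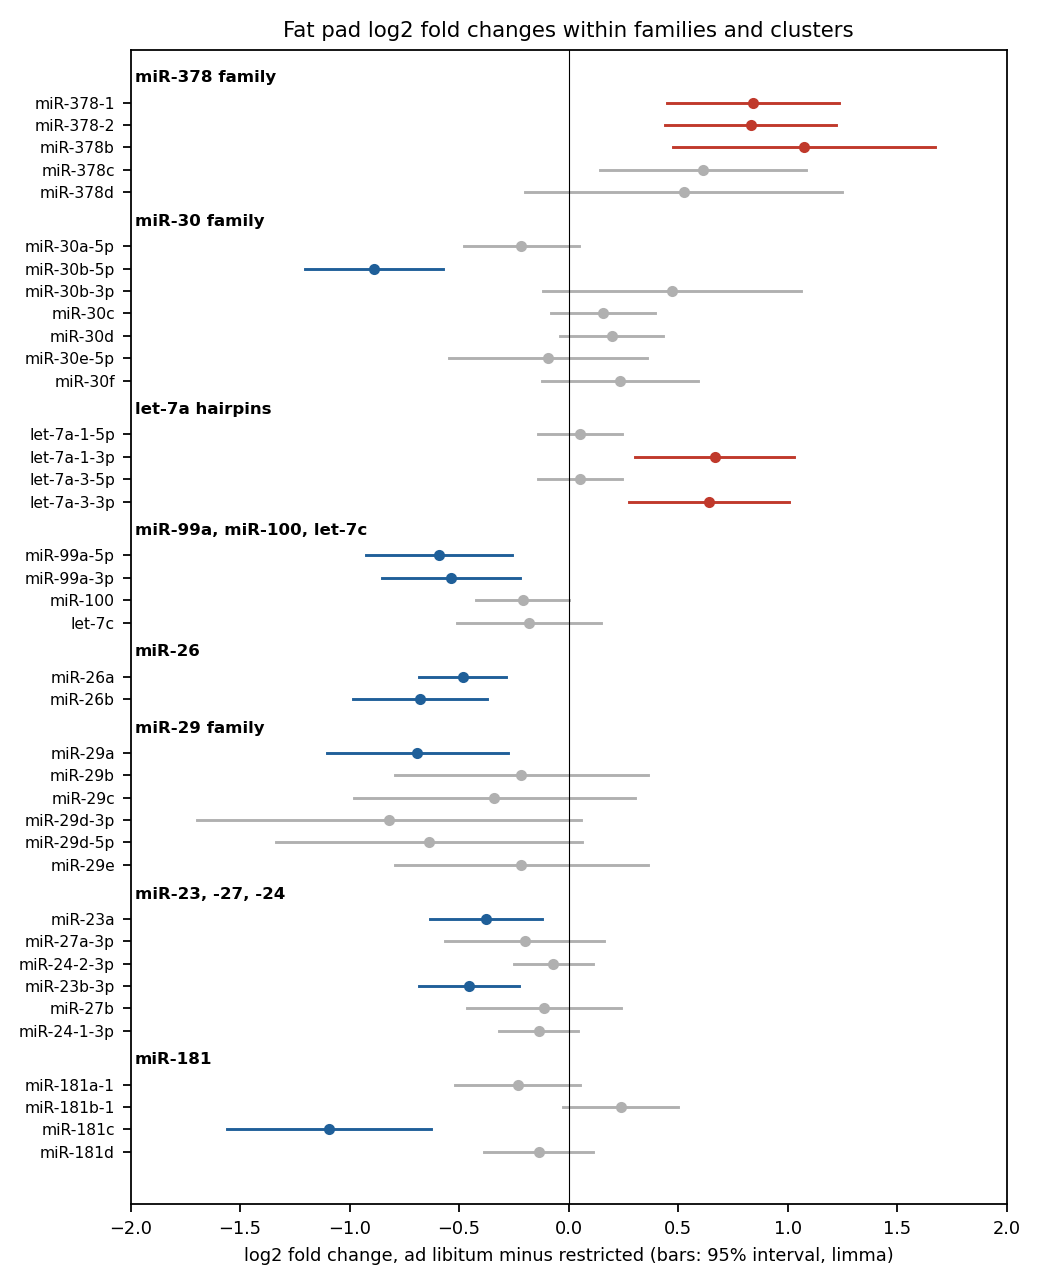
Log2 fold change (x axis, ad libitum minus restricted) with 95% intervals (limma) for miRNAs grouped by family or cluster; red and blue mark miRNAs that were higher and lower, grey those that did not pass. miR-30b-5p (-0.89) and miR-181c (-1.09) lie lower than the other members shown, while all 5 members of the miR-378 family lie above 0.

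miR-339a and miR-339b, which lie in different genes, were both lower. miR-339a was 1217 to 1858 against 2109.8 to 2786 with no overlap (log2 fold change -0.76, standard error 0.12, adjusted p = 0.00168). For miR-339b the log2 fold change was -0.58 (adjusted p = 0.0196), and without ad libitum replicate 9 its adjusted p was 0.0503. miR-210, the miRNA known for its induction by hypoxia, ranged from 218 to 374 against 416 to 599, and its groups were separate (log2 fold change -0.75, standard error 0.15, adjusted p = 0.00628). The controls were higher still, at 605 to 862.

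miR-29a, a repressor of collagens, ranged from 2220.4 to 4399 against 3746 to 7869 and overlapped between the groups (log2 fold change -0.69, standard error 0.19, adjusted p = 0.0261). It passed in 7 of the 12 fits with 1 sample left out, with an adjusted p of up to 0.0607. All 6 tested entries of the miR-29 family, which include both arms of miR-29d, had a log2 fold change below 0, as did 158 of all 305 miRNAs. Among the 6, miR-29a alone passed (16.7%, near the 16.4% of all miRNAs). miR-335, from an intron of the imprinted gene MEST, ranged from 243 to 432 against 357 to 527 (log2 fold change -0.58, adjusted p = 0.0272). Its call was held in 6 of the 12 fits. miR-455-5p, hosted by the collagen gene COL27A1, ranged from 557 to 899 against 756 to 1148 (log2 fold change -0.48, adjusted p = 0.0487, 4 of the 12 fits).

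Striated muscle miRNAs varied widely within both groups. miR-133a was 70.3 to 93.2 in 5 ad libitum samples and 208 in the sixth, replicate 11, against 98.3 to 334 in the restricted samples. Its log2 fold change was -0.98 (standard error 0.30, adjusted p = 0.0417), and 2 of the 12 fits kept the call. The more abundant miR-1 ranged from 465 to 2259 against 488 to 2820 and did not pass (log2 fold change -0.54, adjusted p = 0.385). The sum of the 5 muscle miRNAs was 591 to 2586 in the ad libitum, 693 to 3277 in the restricted and 1792 to 3118 in the control samples. Its part in the other differences was not tested. In whole tissue, fewer cells of a type and less of a miRNA per cell cannot be told apart.

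Among the adipocyte-linked miRNAs, 7 of 22 tested passed, or 31.8% against 16.4% of all miRNAs. The higher ones were miR-378-1, its copy miR-378-2, miR-378b and miR-365-5p, and the lower ones miR-26b, miR-335 and miR-455-5p. The list held miR-26b but neither miR-26a nor miR-30b-5p, which were also lower. Its counts thus depend on the choice of members. The members did not share a direction: 11 had a log2 fold change above 0 and 11 below, and the median was -0.07 (0.07 after rescaling), beside -0.02 over all miRNAs. miR-193a-3p, a further member, was 0 to 44.5 against 44.6 to 101 and did not pass (log2 fold change -2.12, standard error 0.72, adjusted p = 0.0590). miR-103 and miR-107, linked to insulin sensitivity, did not pass either, with log2 fold changes of -0.17 and -0.15 for the miR-103 copies, whose groups did not overlap, and 0.00 for miR-107. Of 9 repressors of adipogenesis, miR-130a was lower and miR-34a higher. miR-34a, a target of p53, ranged from 138 to 262 against 88.9 to 150.0 (log2 fold change 0.60, adjusted p = 0.0417, 2 of the 12 fits).

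Of the markers of other cell types, none of the tested epithelial (4), erythroid (2), immune cell (8), liver (4) or endothelial (2) miRNAs passed. The share over all miRNAs was 16.4%, and nothing is read from counts in lists this small. All 4 epithelial miRNAs had a log2 fold change above 0, from 0.05 to 1.45, with a list median of 1.39 (0.92 after rescaling), at the low values given above. Of these, miR-205 reached the mean of 10 only with ad libitum replicate 3, where it was 74.9 and which stood apart. Nothing is therefore read from the shared sign. Of 8 miRNAs of smooth muscle and stroma, miR-199b was lower (log2 fold change -0.48, adjusted p = 0.0180) and the others did not pass, with a list median of -0.19. The immune cell list had a median of -0.27, and its sum was 5365 to 7299 in ad libitum and 6511 to 7919 in restricted samples. Of its 8 members, 6 had a log2 fold change below 0 and 2 above. miR-142-5p of leucocytes did not overlap between the groups, at 599.6 to 769.9 against 789 to 1192, without passing (log2 fold change -0.35, adjusted p = 0.0696). The other arm of that hairpin, miR-142-3p, was at 0.04 (adjusted p = 0.942), so nothing is read from 1 arm about leucocytes. The endothelial sum was 312683 to 431282 against 254628 to 407112.

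The DLK1-DIO3 cluster is an imprinted locus whose many miRNAs are expressed from the maternal chromosome. Of its 43 tested miRNAs, 4 passed (9.3%, against 16.4% of all), in opposite directions. miR-409b ranged from 3694 to 9543 (median 5676) against 1860.3 to 5662 (median 2353), where restricted replicates 5 and 13 reached into the ad libitum range (log2 fold change 1.08, standard error 0.29, adjusted p = 0.0210). It did not pass without ad libitum replicate 9 or restricted replicates 8 or 16, with an adjusted p of up to 0.0531. miR-154c had a log2 fold change of 0.66 (adjusted p = 0.0364, 6 of the 12 fits). miR-376e was 122 to 276 (median 252) in the ad libitum and 313 to 599.6 (median 450.1) in the restricted samples, without overlap (log2 fold change -1.01, standard error 0.22, adjusted p = 0.01). miR-381, whose seed is shown above, ranged from 3417 to 5897 against 5329 to 7732 (log2 fold change -0.48, standard error 0.13, adjusted p = 0.0249). It did not pass without ad libitum replicate 9 or restricted replicate 13, with an adjusted p of up to 0.0573, or after rescaling (adjusted p = 0.111). Over the whole cluster 29 miRNAs had a log2 fold change above 0 and 14 below, with a median of 0.18 (0.32 after rescaling). miR-433 was 261 to 1299 against 136 to 767, and its log2 fold change of 1.11 did not pass (standard error 0.41, adjusted p = 0.0757). miR-543, which lies beside miR-376e and miR-154c, was at 0.97 (adjusted p = 0.0564).

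Neighbouring miRNAs did not always move together. The hairpins of miR-154c, miR-376e and miR-381 lie within 10 kb of each other, and the first was higher while the other two were lower. In both miR-23, miR-27 and miR-24 clusters, miR-23 alone passed among the miRNAs tested: miR-23b-3p had a log2 fold change of -0.45 (adjusted p = 0.0131) and its neighbours miR-27b and miR-24-1-3p -0.11 and -0.14. miR-23a was at -0.38 (adjusted p = 0.0443, 4 of the 12 fits), with miR-27a-3p at -0.20 and miR-27a-5p at -0.12. Of the entries matched to the miR-24 gene beside it, miR-24 was at -0.28 and miR-24-2-3p at -0.07. miR-181d, next to miR-181c, was at -0.14 (adjusted p = 0.420). In the X-linked cluster of miR-424 and miR-503, miR-450b and miR-450a-2 were higher (log2 fold changes 0.64 and 0.52, adjusted p = 0.0194 and 0.0443). The latter held in 4 of the 12 fits, and the reads of the miR-450a copies were divided between names in an uncertain way: 1 restricted library listed miR-450a-1 at 0 and another name, miR-450a, at 2300.1, while the other 11 listed miR-450a at 0.

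Arms of 1 hairpin could be compared for 27 hairpins. Both arms passed for 2 of them, miR-99a with both lower and miR-345 with its arms in opposite directions. miR-345-3p ranged from 227 to 364 against 189 to 249 (adjusted p = 0.0417), while miR-345-5p, at 6.01 to 15.2 against 17.4 to 28.6, fell by 1.00 on the log2 scale near the lower limit of detection (adjusted p = 0.0472) and passed in 1 of the 12 fits. For 8 hairpins 1 arm passed. Among them was let-7a. Its let-7a-1-3p was 782 to 1353 (median 925) against 436 to 747 (median 638), without overlap (log2 fold change 0.67, standard error 0.17, adjusted p = 0.0191). The main arm let-7a-1-5p was at 86331 to 100234 against 75618 to 106278 (log2 fold change 0.05, 95% interval -0.14 to 0.24). The 3p arms of hairpins let-7a-1 and let-7a-3 share reads, and the second had a log2 fold change of 0.64 (adjusted p = 0.0204; 0.0525 without restricted replicate 8). Among the 14 let-7 miRNAs tested these 2 passed (14.3%, near the 16.4% of all miRNAs), with a family median of 0.05. In all, 18 of the 27 hairpins had arms with the same sign. Beside the 16.4% of all miRNAs that passed, no comparison level was computed for these hairpin counts, and nothing is read from them about arms.

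The 14 tested miRNAs of the miR-17-92 cluster and its relatives, the 6 of the miR-15 and miR-16 family and the 12 of the ruminant miR-2284 and miR-2285 family had 0 calls each, against 16.4% of all miRNAs, and nothing is read from such small lists. Their median log2 fold changes were -0.08, -0.17 and -0.37, the first of which turned to 0.07 after rescaling. The injury-linked miR-21-5p had a log2 fold change of 0.20 and did not pass (adjusted p = 0.477). Further lower miRNAs, named only because they passed, were miR-652, miR-28 and miR-769, with log2 fold changes of -0.50, -0.39 and -0.37, which passed in 6, 12 and 4 of the 12 fits.

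The 4 control fat pad samples, which did not enter the fit, are given as a description. For 37 of the 50 miRNAs the control mean was nearer to the restricted than to the ad libitum mean on the log2 scale, 17 of them higher and 20 lower in ad libitum samples. The control mean lay between the group means for 27. The same shares over all miRNAs tested are not given, so nothing is read from these counts about the 50 in particular.

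No miRNA passed the same test in mammary parenchyma (0 of 333, 0%) or liver (0 of 308, 0%); 11 and 12 had an unadjusted p under 0.05. Whether the feeding effect itself differed between tissues was tested with an interaction term. Between fat pad and parenchyma 0 of 336 miRNAs passed (0%; 31 with an unadjusted p under 0.05), so that the fat pad was not shown to respond differently from the parenchyma. The lowest adjusted p was 0.0843, for let-7a-1-3p and its copy let-7a-3-3p. let-7a-1-3p was higher by a log2 fold change of 0.67 in the fat pad and had one of -0.32 in the parenchyma, at 1747 to 2769 against 2383 to 3965. After rescaling to equal sums both copies passed. For miR-378-1 the log2 fold change in parenchyma was 1.00 and did not pass (unadjusted p = 0.0104, adjusted p = 0.900), and the difference between the sites was -0.15 (standard error 0.41, adjusted p = 0.991).

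Between fat pad and liver 1 of 327 miRNAs passed (0.306%), and 0 when the replicate number was added as a block. The miRNA was miR-6715, which was listed at 0 in all 12 liver samples and entered the test through its fat pad values. Its interaction term (2.72, standard error 0.53, adjusted p = 0.0116) therefore restates the fat pad fold change and says nothing about feeding in the liver. In parenchyma it was at most 6.45 in the ad libitum and listed at 0 in the restricted samples. miR-10172-3p and miR-2898 were present in the liver, at 1240 to 8126 and 869 to 5499, with log2 fold changes of 0.03 and -0.40 there that did not pass.

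Across the 293 miRNAs tested at both mammary sites, 69.3% had a log2 fold change of the same sign in fat pad and parenchyma, and 32 of the 47 miRNAs that had passed in the fat pad did so (68.1%). Pearson's r across miRNAs was 0.50. With the liver 54.0% of 274 miRNAs and 29 of 47 (61.7%) shared their sign, and r was 0.16. These values are descriptions: miRNAs are not independent, copies and clusters are among them, and the labels do not say whether the tissues came from the same animals. In parenchyma the median size of the log2 fold change of those 47 was 0.21, beside 0.69 in the fat pad, where they had been chosen for their size.

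**Figure D4:**
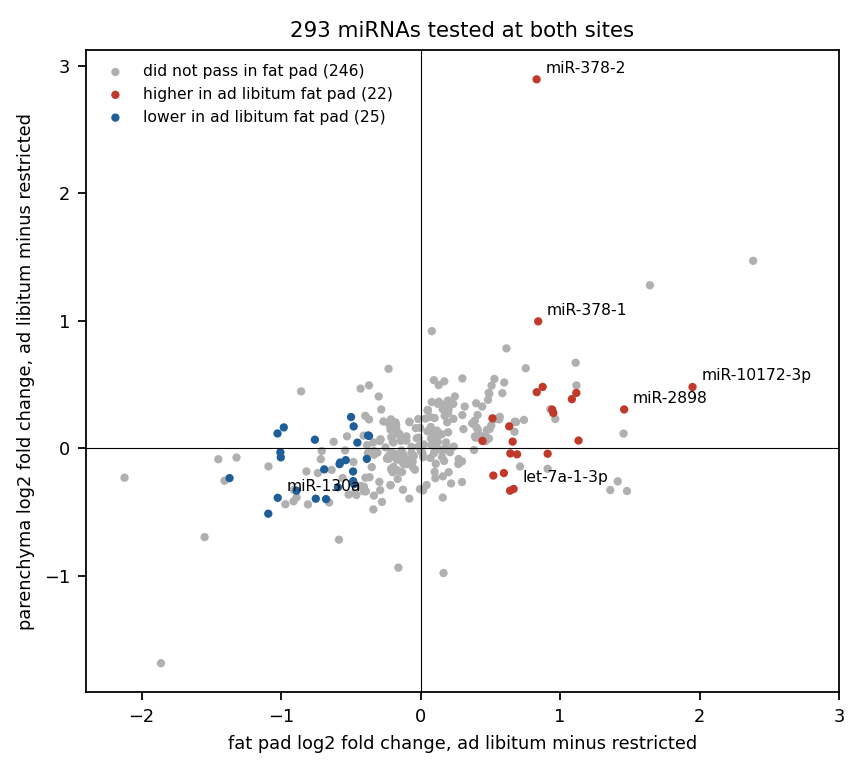
Log2 fold change (ad libitum minus restricted) in the fat pad (x axis) and in the mammary parenchyma (y axis) for 293 miRNAs tested at both sites, with the miRNAs that were higher (22, red) or lower (25, blue) in ad libitum fat pad. The points spread more along the x axis; miR-378-2, at 2.89 in parenchyma, rests on a restricted sample in which this copy was listed at 0.

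The number of miRNAs detected per library depended on depth. At a minimum value of 2 it was 341 ± 29.1 in ad libitum and 339 ± 13.3 in restricted samples (SD, n = 6 each; exact permutation test, two-sided, p = 0.868, where the smallest p possible is 0.00216). At a minimum value of 10 it was 305.5 ± 5.89 against 300.2 ± 3.54 (exact p = 0.104). All libraries were also thinned to the 2123962 reads of the smallest, in a single random draw. The ad libitum samples then showed 301 ± 7.33 and the restricted 292 ± 6.12 miRNAs (exact p = 0.0368).

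Leaving out 1 sample at a time gave 28 to 61 miRNAs past the threshold. The lowest counts were 28 without ad libitum replicate 9 and 33 without restricted replicate 8, all of them among the 50. In all 12 such fits 26 of the 50 passed, 13 in each direction. They include miR-6715, miR-10172-3p, miR-2898, miR-6529a, miR-1307 and the miR-378 copies among the higher ones, and miR-130a, miR-2484, miR-181c, miR-30b-5p, miR-339a, miR-210, miR-26a and miR-26b among the lower ones.

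**Figure D5:**
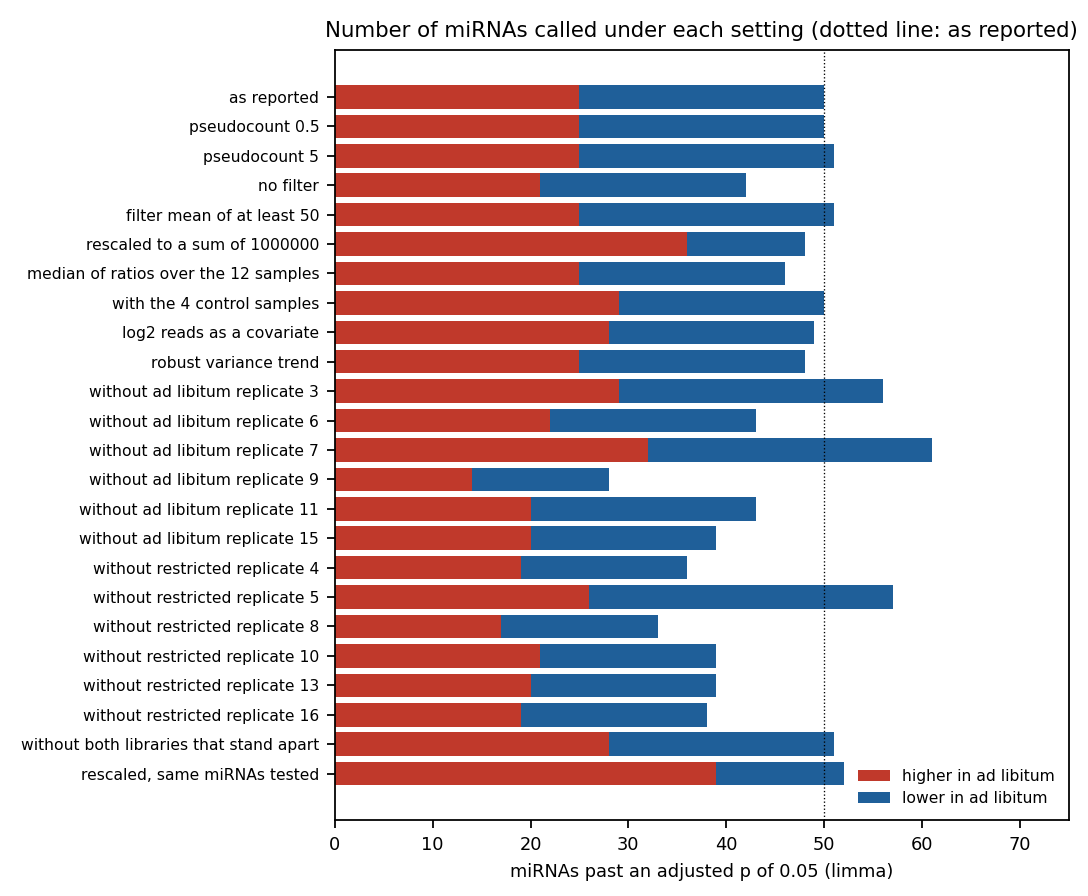
Number of miRNAs past an adjusted p of 0.05 (x axis, limma) under each setting (y axis), split into higher (red) and lower (blue) in ad libitum fat pad. The dotted line marks the 50 reported; the count is lowest at 28 without ad libitum replicate 9, and the split is uneven after rescaling (39 and 13 with the same miRNAs tested).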

How the data were processed

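The authors ligated adaptors to total RNA, amplified the reverse-transcribed products by PCR and selected them by size on a gel. The submitters' processing notes list, with no version or role, DESeq2, Trim Galore, FastQC and bcl2fastq. For its comparison of software the study names miRBase and the UMD assembly of cattle; whether they also stand behind the deposited values is not given in the sources used here, nor is the program that counted the reads. Each deposited value is a count of reads over the size factor of its library, so no test for counts was used. Every value was a whole multiple of 1 step per library (tolerance 0.01), and the sum of steps was taken as the estimated reads. Ligation favours some sequences, so tests compared samples only, and an order of levels between miRNAs is that of the deposited values. The 6 columns of the authors' own comparisons and means were not used, and some miRNAs were not analysed here.

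The 6 ad libitum and 6 restricted fat pad samples, grouped by their labels, were fitted without controls in R 4.3.3 by limma 3.58.1 with a variance trend, taking log2(value + 1), for miRNAs with a mean of at least 10 and an adjusted p of 0.05 (Benjamini-Hochberg). Fold changes on this scale understate those of low miRNAs. The fits were tested on simulated data. Exact permutation tests used all 924 splits (Python 3.11.15, SciPy 1.17.1). Interaction terms compared the feeding effect with that in parenchyma and liver. Alternatives were other pseudocounts (0.5 and 5), filters (none, or a mean of 50), scalings, a reads covariate, added controls and samples left out. Named miRNAs were those past the threshold with a group mean of 50 or more (up to 15 per direction by size), those with lower means by name, the 10 most abundant and members of the lists; others are named as such. The comparison, the members and the lists were chosen with earlier results of these data known. Within groups no sample was a copy of another, since counting error was exceeded in all 30 pairs (chi-square divided by its degrees of freedom at least 112). Host and neighbouring genes come from RefSeq (ARS-UCD2.0), where 49 of the 50 miRNAs matched by symbol; no coordinates are given. The qPCR reference sequences come from the study's supplementary tables.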

Additional observations from a re-analysis of the deposited data

Results flagged for a closer look

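Values far from the rest of their group were found in 4 of 136 groups of values checked, and about 1 in 20 would be by chance. For miR-133a, ad libitum replicate 11 stood at 208 and the other ad libitum samples at 70.3 to 93.2; without it limma gave a log2 fold change of -1.21 (adjusted p = 0.0109). The same library had 2586 as the sum of the striated muscle miRNAs, where the others had 591 to 971. For miR-2387, restricted replicate 8 was at 9.33 and the other restricted samples at 20.9 to 30.4; without it the log2 fold change was 0.93 (adjusted p = 0.0357). For miR-376e, ad libitum replicate 3 was at 122 and the others at 209.8 to 276; without it the log2 fold change was -0.83 (adjusted p = 0.0112).

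For miR-6715 the limma interaction term of fat pad against liver was 2.72 on the log2 scale (adjusted p = 0.0116). Its values in the liver were all listed at 0, so the term restates the fat pad fold change and is no test of a difference between the tissues.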

How the results depend on the processing

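With another pseudocount, filter, covariate, variance trend or median-of-ratios scaling, or with the controls in the fit, 42 to 51 miRNAs passed, against 50. Rescaling to equal sums gave 48 of 255 tested, 36 higher and 12 lower, and 52 with the same miRNAs tested. Leaving out 1 sample gave 28 (without ad libitum replicate 9) to 61 (without ad libitum replicate 7), and 33 without restricted replicate 8; the cause was not tested beyond the smaller number of samples. Leaving out both libraries that stand apart and rescaling with the same miRNAs were added after seeing the data. For a different effect in parenchyma, rescaling gave 2 miRNAs in place of 0, the let-7a 3p copies. For the liver it gave 0 in place of 1, since miR-6715 fell below the filter. The difference in detected miRNAs was 2.33, 5.33 at a minimum value of 10 (exact p = 0.104) and 9.67 in thinned libraries (exact p = 0.0368).

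The groups compared in the fat pad share no numbers. Across tissues, the replicate block (the number in the titles) left 0 miRNAs for parenchyma and 0 in place of 1 for the liver. Deviations of same-numbered samples correlated by more than 0.1 in 8 of 12 pairs with parenchyma and 8 of 12 with liver, and 6 and 5 fat pad samples correlated best with their own number. The main interaction terms left this pairing out and treated all samples as independent. Depth limits miRNAs of low level, since up to 5 reads are listed as 0.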
